A study of Mus musculus with 4 samples.

Results

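Fabp3, Fabp5 and Fabp7 encode fatty acid binding proteins, and all probe sets that the platform annotation gives to 1 of these genes alone were taken. These were 3 of 18194 measured genes and 5 of 45101 probe sets, with 2 for Fabp3, 2 for Fabp5 and 1 for Fabp7. The genes were chosen with their Rax::GFP- minus Rax::GFP+ differences known, Fabp7 for being high in Rax::GFP- cells, so their values are a description and carry no test. Mouse embryonic stem cells (ESCs) with a GFP reporter of the rostral gene Rax were grown as floating aggregates by SFEBq, a serum-free culture without added growth factors, and sorted by FACS at day 4.5. The 2 groups were GFP- cells, which the study calls presumptive caudal, and GFP+ cells, called rostral, with 2 Affymetrix mouse genome arrays for each. Both groups come from the Rax::GFP line and received no treatment. RNA of each array was prepared from cells pooled over many aggregates, and the study calls the arrays of a group biological duplicates. GFP- cells are defined by the absence of reporter signal, so any cell of the aggregate without it can be among them.

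Fatty acid binding proteins are small cytosolic proteins that hold a long-chain fatty acid in an internal pocket and carry it to membranes, mitochondria or the nucleus. Fabp7, also called brain lipid binding protein, is known from the radial glia of the developing brain and binds polyunsaturated fatty acids. Fabp3 is the heart type, abundant in muscle cells that burn fatty acids, and Fabp5 is the epidermal type, found in many tissues, which can deliver ligands to the nuclear receptor Ppard.

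The promoter sequences at hand held no entry for Fabp5, so only those of Fabp7 and Fabp3 are shown. The 250 bases before their annotated starts in the RefSeq table of GRCm38.p6 are given so that their sequence can be set side by side. Both lie on the plus strand, Fabp7 at chr10:57784673-57784922 and Fabp3 at chr4:130308488-130308737, and capitals mark matches to the motifs named below.
Fabp7: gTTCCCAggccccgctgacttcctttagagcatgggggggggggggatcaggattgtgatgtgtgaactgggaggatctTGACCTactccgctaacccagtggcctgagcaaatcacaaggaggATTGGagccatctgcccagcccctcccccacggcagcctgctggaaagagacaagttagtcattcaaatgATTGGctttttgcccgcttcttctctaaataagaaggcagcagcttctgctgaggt
Fabp3: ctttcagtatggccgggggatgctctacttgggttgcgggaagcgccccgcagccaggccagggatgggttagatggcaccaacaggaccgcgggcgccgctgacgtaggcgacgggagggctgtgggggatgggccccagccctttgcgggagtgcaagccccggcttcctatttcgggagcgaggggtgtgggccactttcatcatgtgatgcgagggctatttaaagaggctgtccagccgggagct
Both strands were searched for the TATA box (TATAAA), the CCAAT box (CCAAT), the GC box (GGGCGG), the octamer of POU factors (ATGCAAAT), a Sox core (ACAATG), an Rbpj core (TGGGAA), the nuclear receptor half-site (AGGTCA) and the direct repeat of that half-site with any 1 base between the copies. The Fabp7 stretch held the CCAAT box at 2 places, beginning 126 and 56 bases before the start, the Rbpj core at 249 bases and the half-site at 171 bases, all on the minus strand. The Fabp3 stretch held none of these letters. Of 32851 promoter stretches of the same length, 33.8% held the CCAAT box, 21.6% the Rbpj core and 14.0% the half-site. The GC content was 54.8% for Fabp7 and 64.8% for Fabp3, with a median of 52.4% over all stretches. A match of letters is no measured binding.

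Fabp7 had log2 values of 8.34 and 7.96 in GFP- cells, against 5.67 and 5.46 in GFP+ cells. Both GFP- arrays lay above both GFP+ arrays, with a gap of 2.29 between the nearest of them. The mean was 8.15 ± 0.27 in GFP- cells and 5.56 ± 0.15 in GFP+ cells (SD, n = 2 each), a log2 difference of 2.58 (standard error 0.16) or 5.99-fold. Relative to the median of its own array, the probe set was at 2.50 and 2.10 for GFP- cells, against -0.22 and -0.42 for GFP+ cells. The deposited values carry no detection calls, so a value below the array median in GFP+ cells cannot be read as absence. By size of the difference toward GFP- cells, Fabp7 ranked 37 of 18194 genes, each taken by its most expressed probe set.

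Fabp3 had log2 values of 10.84 and 11.15 in GFP- cells, against 8.69 and 9.09 in GFP+ cells, at its more expressed probe set (1416023_at). The groups did not overlap and were 1.76 apart at their nearest. The mean was 11.00 ± 0.22 in GFP- cells and 8.89 ± 0.28 in GFP+ cells (SD, n = 2 each), a log2 difference of 2.11 (standard error 0.18) or 4.32-fold, at rank 70 toward GFP- cells. All 4 values of this probe set lay above the median of their array, by 5.01 and 5.29 for GFP- cells, against 2.80 and 3.20 for GFP+ cells. The other probe set of Fabp3 (1444844_at) gave 5.69 and 5.78 in GFP- cells, against 5.82 and 5.81 in GFP+ cells. This probe set lay near the array medians, at -0.15 and -0.08 for GFP- cells, against -0.07 on both GFP+ arrays. Its log2 difference was -0.08 (standard error 0.08), so the probe sets of Fabp3 disagreed, and their mean differed by 1.01. The RefSeq gene table also holds a pseudogene, Fabp3-ps1, on chromosome 10, and whether its transcripts reach either probe set was not tested.

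Fabp5 was high in both groups and differed little. Its more expressed probe set (1416021_a_at) had log2 values of 13.55 and 13.42 in GFP- cells, against 13.81 and 13.62 in GFP+ cells, and the other (1416022_at) had 11.84 on both GFP- arrays, against 12.13 and 12.05 on the GFP+ arrays. The groups did not overlap at either probe set, with gaps of 0.07 and 0.20. The log2 differences were -0.23 (standard error 0.10) and -0.24 (standard error 0.07), or 0.854-fold and 0.844-fold, so here the probe sets had the same direction and size. When 1 array at a time was left out, the difference of the more expressed one lay between -0.32 and -0.13. The values lay 7.56 to 7.92 above the array medians at the more expressed probe set and 5.98 to 6.24 above them at the other.

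**Figure D1:**
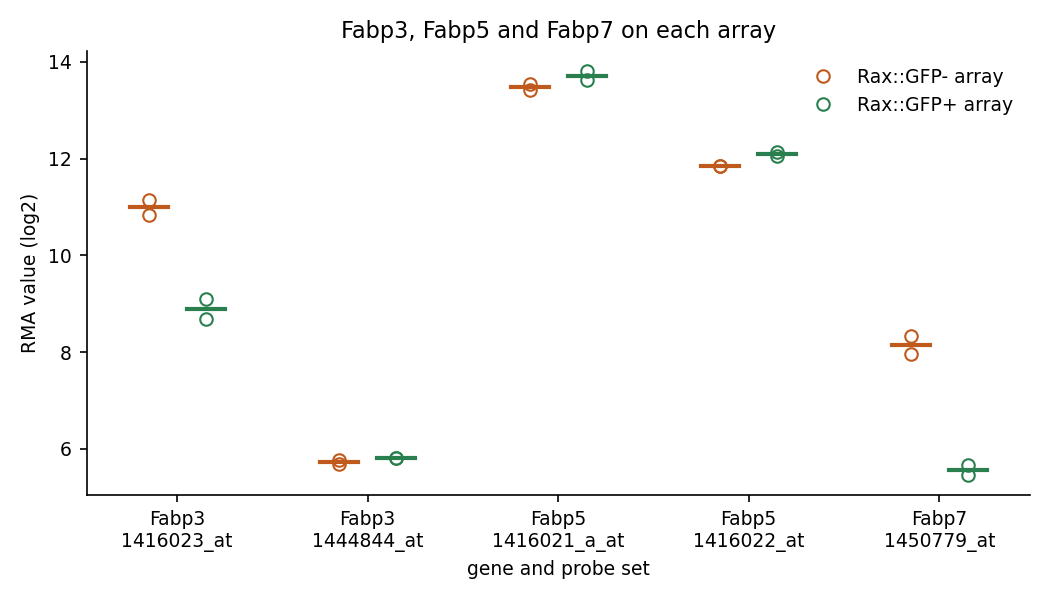
RMA value (log2, y axis) of the 5 probe sets of Fabp3, Fabp5 and Fabp7 (x axis), with circles for arrays, 2 per group, and bars for group means. The GFP- arrays lie above the GFP+ arrays at 1 probe set of Fabp3 (means 11.00 and 8.89) and at Fabp7 (8.15 and 5.56), and slightly below them at both probe sets of Fabp5.

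The members' differences can be set side by side, as a description of values that chose them. Each gene was taken here by its most expressed probe set. At the other probe set of Fabp3 the difference was -0.08, so the comparisons with Fabp3 hold for 1416023_at alone. The difference of Fabp7 exceeded that of Fabp5 by 2.81, where the SD of Fabp7 minus Fabp5 over the arrays of a group was 0.18 in GFP- cells and 0.01 in GFP+ cells. The difference of Fabp3 exceeded that of Fabp5 by 2.34, with SDs of 0.31 in GFP- cells and 0.42 in GFP+ cells. Between Fabp7 and Fabp3 the excess was 0.47, with SDs of 0.49 in GFP- cells and 0.43 in GFP+ cells. On GFP- arrays, Fabp7 was higher on replicate 1 and Fabp3 on replicate 2, and the same held on GFP+ arrays. With arrays of equal number set against each other, Fabp7 differed by 2.67 and 2.49 and Fabp3 by 2.16 and 2.07.

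Limma, which fits all probe sets together and shares their spread, called 2 of the 5 probe sets after Benjamini-Hochberg adjustment, both of them higher in GFP- cells, where 7.47% of all probe sets were called (3.64% higher and 3.82% lower). Values of the 2 groups were fully separate at 5 of the 5, as they were at 57.3% of all probe sets. The choice of the members used this contrast, and nothing is read from these counts. For a single gene, the smallest p of an exact permutation test is 0.333 in this design. In sorted populations, fewer cells that express a gene and less RNA per cell cannot be told apart.

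The genes with the profile most like that of Fabp7 over the 4 arrays, by the smallest root mean square difference of log2 values centred on each gene's mean, were Mageb16 (0.11), the caudal homeobox gene Irx3 (0.13) and Cdh1, which encodes E-cadherin (0.14). Cdh1 had 11.99 and 11.97 in GFP- cells, against 9.42 and 9.35 in GFP+ cells. No gene lay within 0.1 of Fabp7. Nearest to Fabp3 were Tfpi, an inhibitor of coagulation (0.032), the Eph receptor gene Epha1 (0.059) and Foxa2, an endoderm factor (0.065), among 14 genes within 0.1. Tfpi had 10.58 and 10.85 in GFP- cells, against 8.35 and 8.83 in GFP+ cells. Nearest to Fabp5 were Parp16 (0.004), Fads2b (0.0082) and Zfhx4 (0.0083), but 1848 genes lay within 0.1, so this profile singles out none. Over 2 groups of 2 arrays, such a profile holds little beyond the group difference, on which the members were chosen. The nearest genes had differences of like size, such as 2.59 for Irx3 beside 2.58 for Fabp7. Likewise Foxa2 had 2.10 beside 2.11 at the more expressed probe set of Fabp3. Expression in the same cells was not tested.

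**Figure D2:**
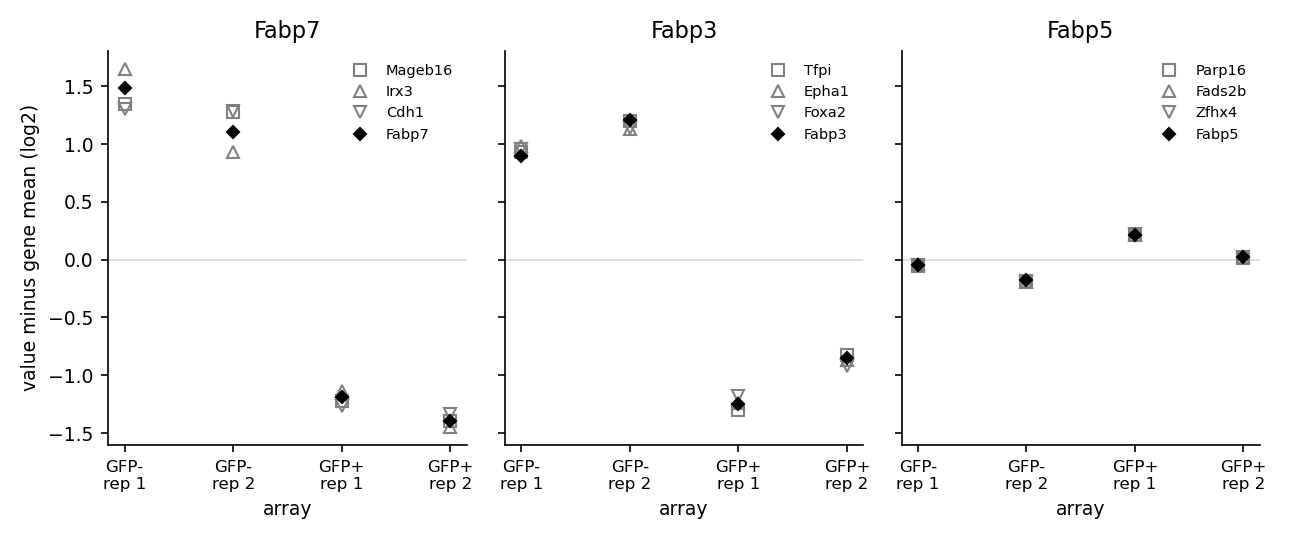
Log2 value minus the gene's mean over the 4 arrays (y axis) on each array (x axis) for Fabp7, Fabp3 and Fabp5 (black diamonds) and the 3 genes nearest to each (open grey symbols). The 3 nearest genes track Fabp3 and Fabp5 closely and Fabp7 less closely, with root mean square differences of 0.11 to 0.14 for Fabp7 and 0.032 to 0.065 for Fabp3.

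The nearest measured protein-coding neighbours in the RefSeq table did not show differences as large as those of Fabp7 and the more expressed probe set of Fabp3. Beside Fabp7 on chromosome 10, Pkib differed by 0.06 (adjusted p = 0.731 from limma) and Smpdl3a by 0.46 (adjusted p = 0.0555). Both lay below the array medians, at 3.48 to 3.66 for Pkib and 3.69 to 4.25 for Smpdl3a, so their small differences say little. Beside Fabp3 on chromosome 4, Serinc2 differed by -0.22 (adjusted p = 0.172) and Zcchc17 by -0.08 (adjusted p = 0.512). Beside Fabp5 on chromosome 3, Pag1, an adaptor of Src family kinases, was higher in GFP- cells by 0.47 (adjusted p = 0.0346), and Pmp2, another fatty acid binding protein, differed by 0.02 (adjusted p = 0.935).

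The sort was checked on 3 genes. In the limma fit, Rax was lower in GFP- cells (-2.05, adjusted p = 0.00785), as was the rostral gene Six3 at 1 of its 3 probe sets (-0.85, adjusted p = 0.0389, against -0.07 at the probe set with the smallest difference), while Irx3, a gene of caudal neural tissue, was higher (2.59, adjusted p = 0.0175). Omitting GFP+ replicate 1 took Six3 to an adjusted p of 0.112 and Irx3 to 0.0617, and omitting GFP+ replicate 2 took Six3 to 0.0954. Array medians ran from 5.84 to 5.89. Most pluripotent cell and endoderm markers were, like Fabp7 and the more expressed probe set of Fabp3, higher in GFP- cells. Of 10 pluripotent cell markers, 8 were higher in GFP- cells, and the sum of their linear levels was 11100 to 11700 on GFP- arrays, against 1840 to 2100 on GFP+ arrays. Of 12 endoderm markers, 9 were higher, with sums of 5710 to 6590 on GFP- arrays, against 1130 to 1540 on GFP+ arrays. Over all genes, limma called 5.40% higher and 2.63% lower in GFP- cells. The largest differences were those of Nanog (3.51), Tdgf1 (3.10), Dppa5a (3.01) and Zfp42 (2.89) among the pluripotent cell markers and of Sox17 (3.09), Cubn (2.87), Ttr (2.48) and Amn (2.36) among the endoderm markers. Of 8 measured caudal neural markers, 3 were higher, and of 7 rostral ones 4 were lower. The part of these cell types in the values of Fabp3 and Fabp7 was not tested. Of 10 markers of muscle, the tissue where Fabp3 is best known, mean log2 levels were 4.07 to 6.0, and 1, Myl7, was called higher (1.01, adjusted p = 0.0223 from limma, and 0.0526 without GFP+ replicate 1). At an unadjusted p under 0.05, 3 muscle markers were higher, where 12023 of 45101 probe sets passed that cut in either direction. Storey's q-value and an intensity trend each called 2 muscle markers. Myh6, a cardiac myosin gene named after its values were seen, had 5.13 and 5.09 in GFP- cells, against 4.61 and 4.15 in GFP+ cells (adjusted p = 0.0786). The sum over the list was 400.0 to 429 on GFP- arrays, against 324 to 363 on GFP+ arrays, and its part in the value of Fabp3 was not tested. Of 8 epidermis and adipocyte markers, limma called 0, and 0 had an unadjusted p under 0.05. Of 9 neuron markers, it called 0 higher and 1 lower, with a median log2 difference of -0.16.

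Among the other lipid-binding proteins of the family, log2 differences ran from -0.54 for Crabp1 to 0.36 for Rbp7, a retinol binding protein. Of 11 measured genes, limma called 0, and their median log2 difference was 0.02, against 0.05 over all genes. With an unadjusted p under 0.05 there were 1 higher and 2 lower, where 12023 of 45101 probe sets passed in either direction. Fabp1, Fabp2, Fabp4, Fabp6, Fabp9, Fabp12 and Pmp2 had log2 values between 2.83 and 5.01 on all arrays, below the array medians, and differed by -0.04 to 0.20. The retinoic acid binding proteins did not pass the test. Crabp2 had 12.10 and 12.12 in GFP- cells, against 12.48 and 12.50 in GFP+ cells (adjusted p = 0.0518 from limma), and Crabp1 had 7.85 and 7.82 in GFP- cells, against 8.54 and 8.20 in GFP+ cells (adjusted p = 0.0848). With dim probe sets left out or after quantile normalization 1 gene of this list was called lower, and with Storey's q-value, an intensity trend or the mean of probe sets 2 were.

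Enzymes that use fatty acids were higher in part. Of 22 measured genes of fatty acid oxidation, 6 were called higher and 0 lower, against 5.40% and 2.63% of all genes, and the median log2 difference was 0.21. At an unadjusted p under 0.05, limma gave 11 higher and 0 lower, where 12023 of 45101 probe sets passed in either direction. Eci1, which prepares unsaturated fatty acids for oxidation, had 9.11 and 9.17 in GFP- cells, against 7.66 and 7.80 in GFP+ cells (difference 1.41, standard error 0.09, adjusted p = 0.00761). Cpt1a, which admits fatty acids to mitochondria, had 6.95 and 7.20 in GFP- cells, against 6.15 and 6.01 in GFP+ cells (1.0, standard error 0.12, adjusted p = 0.0220), and all 3 of its probe sets passed. Etfa, an electron carrier subunit of this pathway, was higher by 0.87 (adjusted p = 0.0111) and the long-chain dehydrogenase Acadl by 0.79 (adjusted p = 0.0147), which passed at 1 of its 2 probe sets. The highly expressed Hadh and Echs1, enzymes of the same spiral, differed by -0.07 (adjusted p = 0.60) and 0.31 (adjusted p = 0.130). Without GFP+ replicate 1 only Eci1 passed, and without GFP+ replicate 2 there were 3 calls, Eci1, Etfa and Acadl.

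Of 16 measured genes of fatty acid uptake and activation, 3 were called higher and 0 lower, where 5.40% and 2.63% of all genes were. The median was 0.25, against 0.05 over all genes. With an unadjusted p under 0.05 there were 8 higher and 0 lower, where 12023 of 45101 probe sets passed in either direction. Slc27a2, a transport protein that also activates fatty acids, had 9.14 and 9.41 in GFP- cells, against 7.62 and 7.80 in GFP+ cells (1.57, standard error 0.13, adjusted p = 0.0112 from limma). Acsl5, an acyl-CoA synthetase, was higher by 0.55 (adjusted p = 0.0401) and Slc27a4, another transport protein, by 0.48 (adjusted p = 0.0433). Dbi, the acyl-CoA binding protein, differed by -0.27 (adjusted p = 0.232) and Got2 by 0.22 (adjusted p = 0.176). Only Slc27a2 passed when either GFP+ array was left out.

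Among the listed nuclear receptors, Rxrg passed the test, and Rxra, Rxrb and the Ppar genes did not. The more expressed Rxra and Rxrb differed by -0.08 (adjusted p = 0.552 from limma) and 0.04 (adjusted p = 0.79). Ppard, to which Fabp5 can deliver ligands, had 7.01 and 7.04 in GFP- cells, against 6.97 and 6.98 in GFP+ cells, a difference of 0.05 (adjusted p = 0.734 from limma). Ppara and Pparg had values of 3.87 to 4.33 on all arrays and differed by -0.03 and 0.03. Of 15 measured receptors, cofactors and targets, 2 were called higher and 0 lower, where 5.40% and 2.63% of all genes were. The median was 0.04, near the 0.05 of all genes. With an unadjusted p under 0.05 there were 5 higher and 0 lower, where 12023 of 45101 probe sets passed in either direction. The called genes were Rxrg, a retinoid X receptor, and Cpt1a, which the oxidation list also holds. Rxrg had 7.0 and 7.05 in GFP- cells, against 5.83 and 5.99 in GFP+ cells (1.11, standard error 0.09, adjusted p = 0.0112). The targets Plin2, a lipid droplet protein, and Fads2, a desaturase, differed by -0.06 (adjusted p = 0.664) and -0.18 (adjusted p = 0.214). Without either GFP+ array Cpt1a did not pass (adjusted p = 0.0706 without replicate 1 and 0.0553 without replicate 2).

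**Figure D3:**
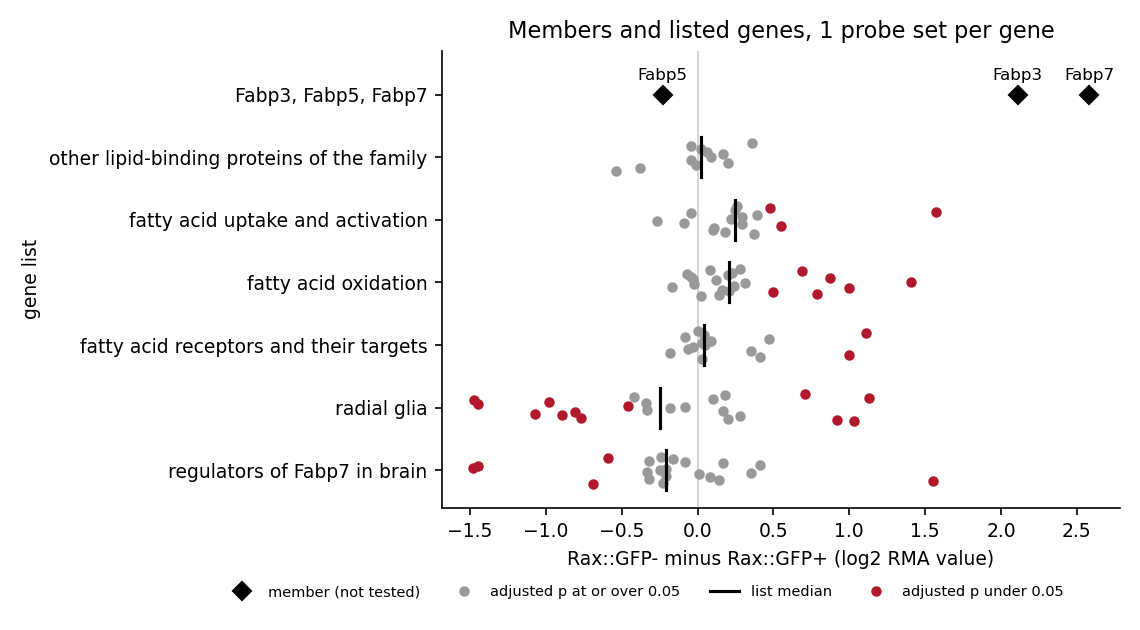
Difference of the group means, GFP- minus GFP+ (log2, x axis), for Fabp3, Fabp5 and Fabp7 (diamonds, top row) and the measured genes of 6 gene lists (rows), each by its most expressed probe set. Red points have an adjusted p under 0.05 from limma and grey points do not, and bars are list medians, from -0.25 for radial glia to 0.25 for uptake and activation.

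Other genes of radial glia did not share one direction. Of 22 measured, 4 were called higher and 8 lower, against 5.40% and 2.63% of all genes, with a median of -0.25. Ptprz1, a receptor phosphatase of radial glia, had 9.03 and 9.0 in GFP- cells, against 10.52 and 10.45 in GFP+ cells (-1.47, standard error 0.07, adjusted p = 0.00611 from limma), and all 3 of its probe sets passed. Pax6, a factor of forebrain radial glia, had 9.47 and 9.26 in GFP- cells, against 10.91 and 10.70 in GFP+ cells (-1.45, standard error 0.12, adjusted p = 0.0117), at 2 of its 5 probe sets. Hes5, a Notch target, was lower by a difference of -1.07 (adjusted p = 0.00928). Slc1a3, the glial glutamate transporter, had 7.44 and 7.65 in GFP- cells, against 6.26 and 6.57 in GFP+ cells (1.13, standard error 0.14, adjusted p = 0.0247), with 4 of 6 probe sets called higher. The remaining called genes, named after their values were seen, were Aldh1l1 (1.03), Ednrb (0.92) and Vim, an intermediate filament (0.71), on the higher side. On the lower side they were Ptn (-0.98), Hes1, a Notch target (-0.89), Hopx (-0.81), Gli3, a mediator of hedgehog signaling (-0.77), and Nr2e1 (-0.46). Prom1 and Glul, highly expressed, differed by -0.34 (adjusted p = 0.0667) and 0.28 (adjusted p = 0.110), and a less expressed probe set of Glul was called higher. Without GFP+ replicate 1 there were 1 higher and 3 lower calls, and Slc1a3 had adjusted p = 0.0694.

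**Figure D4:**
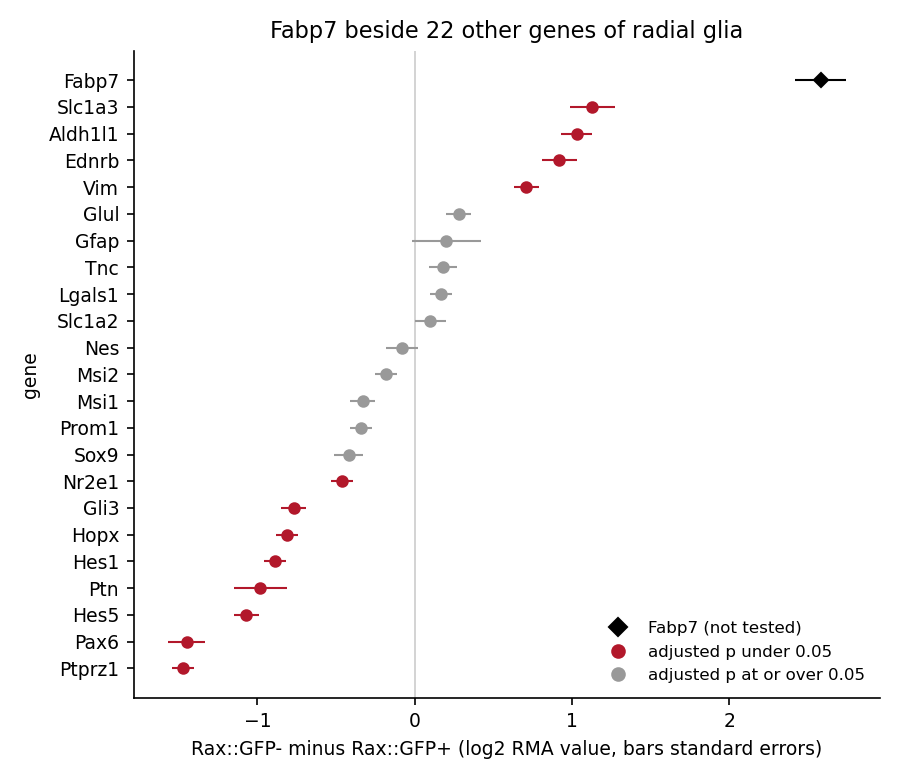
Difference of the group means, GFP- minus GFP+ (log2, x axis, with standard errors as bars), for Fabp7 (black diamond) and 22 other genes of radial glia (y axis, circles), each by its most expressed probe set. Fabp7 stands at 2.58, Slc1a3 at 1.13 and Ptprz1 at -1.47, with red for an adjusted p under 0.05 from limma and grey for the rest.

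Genes known to act on Fabp7 in the rodent brain formed the last list. In radial glia, Notch signaling through Rbpj and neuregulin signaling through Erbb receptors promote its expression, Pax6 does so in rat cortex, and POU and Pbx factors bind its enhancer. Of 21 measured genes, 1 was called higher and 4 lower, where 5.40% of all genes were called higher and 2.63% lower. The median was -0.21, against 0.05 over all genes. With an unadjusted p under 0.05 from limma there were 2 higher and 9 lower, where 12023 of 45101 probe sets passed in either direction. The neuregulin receptor gene Erbb3 had 8.42 and 8.43 in GFP- cells, against 6.81 and 6.93 in GFP+ cells (1.55, standard error 0.08, adjusted p = 0.00638 from limma), at 1 of its 2 probe sets. The ligand gene Nrg1 had 7.14 and 6.92 in GFP- cells, against 8.62 and 8.40 in GFP+ cells (-1.48, standard error 0.12, adjusted p = 0.0122). The Notch ligand gene Dll1 was lower by a difference of -0.69 (adjusted p = 0.0281), as was Pax6, and Reln, named after its values were seen, differed by -0.59 (adjusted p = 0.0239). Sox2 and the POU factor gene Pou3f1 differed by -0.24 (adjusted p = 0.148) and 0.41 (adjusted p = 0.0514). Notch1, Notch2, Notch3 and Rbpj differed by -0.33 to -0.16 and Erbb2 by -0.23, and they did not pass. Erbb4, which did not pass either, had 2.48 to 2.64 on all arrays. Without GFP+ replicate 1 there were 2 lower calls, Nrg1 and Pax6, with Dll1 at adjusted p = 0.0878 and Reln at 0.0933. Leaving out either GFP- array left limma with 0 calls among all probe sets, where 7704 had an unadjusted p under 0.05 without replicate 1 and 7697 without replicate 2, so every call of listed genes was lost there.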

How the data were processed

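RNA of day-4.5 Rax::GFP- and Rax::GFP+ cells was measured on 4 arrays, 2 per group. The values the authors deposited are log2 expression from RMA, run in R 2.13.0 according to the submitters' processing notes. Because RMA normalizes the arrays to one another at the level of single probes, total RNA cannot be compared. Differences are GFP- minus GFP+. A 2-group model was fitted to all probe sets, unfiltered, in limma 3.58.1 (R 4.3.3), with 2 residual and 2.52 prior degrees of freedom, and genes passed at a Benjamini-Hochberg adjusted p under 0.05. The fit was tested on simulated data. Linear levels are 2 raised to the log2 value. Of the probe sets, 34958 had 1 symbol, and a gene was taken by its most expressed one. Listed genes with an unadjusted p under 0.05 are counted by gene and direction. The share printed beside them is over all probe sets, unnamed and dim ones included, so the units are unlike. The lists held 181 different genes, of which 169 were measured. Members and lists were chosen with earlier results of these data known. Named were the members, 3 sort markers, neighbours, the 3 nearest profiles, and of each list described in the text at most 4 called genes, those that differed most, and at most 2 uncalled ones of highest mean level. Named outside this rule, with values known, were the remaining called genes of radial glia, Reln, the uncalled lipid-binding proteins and Myh6. So were the Ppar genes, Rxra, Rxrb, Notch1, Notch2, Notch3, Rbpj, Erbb2 and Erbb4. For marker lists only the called ones, or counts, are printed. Replicate numbers name the arrays and were not used to pair them. The alternatives were a replicate block, Storey's q-value, a filter at a log2 value of 5 on at least 2 arrays, median centring, quantile normalization, an intensity trend, array weights, the mean of a gene's probe sets, and leaving out each array. The number of arrays limits the precision.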

Additional observations from a re-analysis of the deposited data

How the results depend on the processing

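The log2 differences of Fabp7, Fabp5 and both probe sets of Fabp3 kept their sign under each alternative run, and the value moved by more than the spread between replicates only for the mean of the probe sets of Fabp3, at 1.01 against 2.11. Leaving out 1 array, the difference ran from 2.39 to 2.77 for Fabp7, from 1.91 to 2.31 for Fabp3 (-0.13 to -0.04 at its other probe set), and from -0.32 to -0.13 and -0.28 to -0.20 for Fabp5. With a replicate block, these differences were unchanged at 2.58, 2.11, -0.08, -0.23 and -0.24, but limma called 0 probe sets higher and 0 lower, with 11019 at an unadjusted p under 0.05 and 1 residual degree of freedom fewer, and 0 genes of any list. Over all probe sets, same-numbered arrays did not deviate together (correlation -0.0514). At Fabp7, Irx3 and the more expressed probe sets of Fabp3 and Fabp5, values shifted the same way by number in both groups. At the other probe set of Fabp3 they shifted opposite ways, and that of Fabp5 had 11.84 on both GFP- arrays. The share of all probe sets that shift together was not counted, so nothing is read from these few. The study describes duplicates from pooled aggregates in each experiment, and the labels do not say that a number marks a shared batch. Whether same-numbered arrays share a sort was not tested, so the fits with and without the block cannot be ranked. Over all probe sets, 1642 were called higher and 1725 lower. Storey's q-value called 2907 and 3256, and an intensity trend 3230 and 3732. Centring moved the split to 1980 and 1612, and the median of all probe sets is 0.03. Leaving out 1 array, the counts ran from 0 to 1059 higher and from 0 to 1919 lower. Of other lipid-binding proteins, 2 were called lower with Storey's q-value, an intensity trend or the mean of probe sets, and 1 with the dim filter or quantile normalization, against 0. With the intensity trend, 5 genes of uptake and activation were higher and 7 regulators of Fabp7 were lower. The regulators called higher were 2 with Storey's q-value, the dim filter, centring, quantile normalization, the trend, array weights and the mean of probe sets, against 1. Leaving out 1 array, the calls ran from 0 to 1 for lipid-binding proteins lower, 0 to 1 for uptake and activation, 0 to 3 for oxidation, 0 to 1 for receptors and targets, 0 to 4 higher and 0 to 6 lower for radial glia, and 0 to 1 higher and 0 to 3 lower for the regulators. The cause of these changes was not tested. Differences smaller than the array spread were not detectable with 2 arrays per group.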
